A study of Mus musculus with 16 samples.

Results

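Integrins are the receptors that hold a cell to its matrix, and the proteins gathered at their cytoplasmic side tie them to actin and to signalling. This account covers 40 genes of that system: the alpha and beta integrin subunits, 2 accessory proteins, and the talins, kindlins, ILK complex, actin linkers and scaffolds of the focal adhesion. They were picked by gene name from the 57010 gene models of the deposited table, as a family defined by function, and 38 of them had enough counts to be tested. RNA was sequenced from cardiomyocytes of the hearts of C57BL/6 mice, all labelled wild type, in 16 libraries that form 4 groups of 4. PRODH TAC mice had received an AAV9-PRODH virus and Vector TAC mice an AAV9-Vector virus, both followed by transverse aortic constriction (TAC), a surgical narrowing of the aorta that loads the left ventricle. PRODH sham and Vector sham mice had received the same viruses and a sham operation. Surgery came 3 weeks after the injection and the hearts were taken 4 weeks after surgery. Proline dehydrogenase (PRODH) is a mitochondrial enzyme and catalyses the opening step of proline breakdown. The labels do not give the promoter of the virus, the sex or age of the animals, or whether each library came from a single animal, so the p-values cover only the variation among libraries.

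An integrin is a pair of one alpha and one beta chain, and the pair sets the ligand: laminin, collagen, fibronectin and vitronectin, or a counter-receptor on another cell. Talin and kindlin bind the beta tail and switch the pair to its active form, the complex of ILK, PINCH and parvin joins it to actin, and FAK and paxillin pass on the signal. In heart muscle cells these complexes sit in the costameres, which couple the Z-disc to the basement membrane and carry contractile force sideways out of the cell. Fibroblasts, endothelial cells and leukocytes of the heart carry other alpha and beta chains of the same family.

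Levels are given as CPM, counts per 1000000 of a scaled library, and differences as log2 fold changes with their standard error (SE). A gene is called higher or lower where edgeR's quasi-likelihood test, adjusted by Benjamini and Hochberg over all 14066 genes tested, gave a p-value under 0.05. Total counts ran from 15987564 to 22680185 per library, of which 6274257 to 10242817 lay outside the mitochondrial genome and its 5 most abundant nuclear copies. Prodh itself had 13.3, 12.3, 14.7 and 14.2 CPM in PRODH TAC, against 8.38, 6.19, 8.23 and 6.34 CPM in Vector TAC. In sham hearts Prodh had 12.6, 14.3, 13.5 and 14.8 CPM in PRODH sham, against 10.9, 11.1, 10.4 and 11.5 CPM in Vector sham. It was higher with the PRODH virus after TAC (0.90 ± 0.10, adjusted p = 2.19e-08) and did not pass the threshold after sham (0.33 ± 0.10, adjusted p = 0.0517). Within Vector TAC, libraries 3 and 4 stood apart from libraries 1 and 2: mt-Nd4 stood at 20080 and 22058 CPM in them and at 25953 or more in the other 14. In 23 of the 38 tested members both lay above libraries 1 and 2, and in 4 both lay below, a count not made over all genes. Libraries of other groups differed too: in Vector sham the chi-square per gene was 3.29 between libraries 3 and 4 and 16.9 to 21.1 between library 2 and the others. Vector TAC library 2 was the lowest of the 4 in 21 members. The fit without Vector TAC libraries 3 and 4, given beside the counts and calls below, was not planned beforehand and rests in part on library 2. Without library 2 alone 32 members were called higher and 3 lower for TAC under vector, 23 lower and 1 higher for PRODH after TAC, and 17 in the interaction. Over the 14192 genes of that fit the counts were 4263 higher and 3729 lower, 3444 lower and 2645 higher, and 2366 lower in the interaction. Of the 40 members, 16 had a fractional count in at least 1 library, Ilk and Vcl in all 16; how these counts were estimated is not given.

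The libraries held RNA of cells other than cardiomyocytes, and its level moved with the groups. The 10 cardiomyocyte markers, led by Mb, summed to 34610 to 38680 CPM in PRODH TAC and 31280 to 32770 in Vector TAC, with 43840 to 47090 in PRODH sham and 44460 to 48420 in Vector sham. The 10 fibroblast markers, led by Gsn and Dcn, summed to 485.5 to 614.1 CPM in PRODH TAC and 1551 to 1777 in Vector TAC, with 396.0 to 418.0 in PRODH sham and 262.3 to 418.4 in Vector sham. The 10 endothelial markers summed to 757.3 to 866.0 CPM in PRODH TAC and 1009 to 1128 in Vector TAC, with 593.0 to 642.5 in PRODH sham and 544.5 to 652.7 in Vector sham. The 10 myeloid markers, led by Lyz2, summed to 202.5 to 250.7 CPM in PRODH TAC and 358.5 to 386.6 in Vector TAC, with 187.9 to 227.7 in PRODH sham and 121.8 to 193.8 in Vector sham. The 10 mural markers averaged 529.1 CPM in PRODH TAC and 546.6 in Vector TAC, with 432.8 in PRODH sham and 433.7 in Vector sham. Single mural markers went both ways: 5 were called lower and 2 higher with PRODH after TAC, beside 24.6% and 18.5% of all genes. The 8 red cell and platelet markers, led by the globin gene Hbb-bs, averaged 81.4 CPM in PRODH TAC and 186.7 in Vector TAC, with 55.8 in PRODH sham and 100.2 in Vector sham, and the 8 lymphoid markers stayed at 3.47 CPM or less in all libraries. No marker of the 7 lists was at 0 in every library of a group. In such bulk samples fewer cells of a type and less RNA per cell cannot be told apart, and the part of other cells in the results below was not tested.

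**Figure D1:**
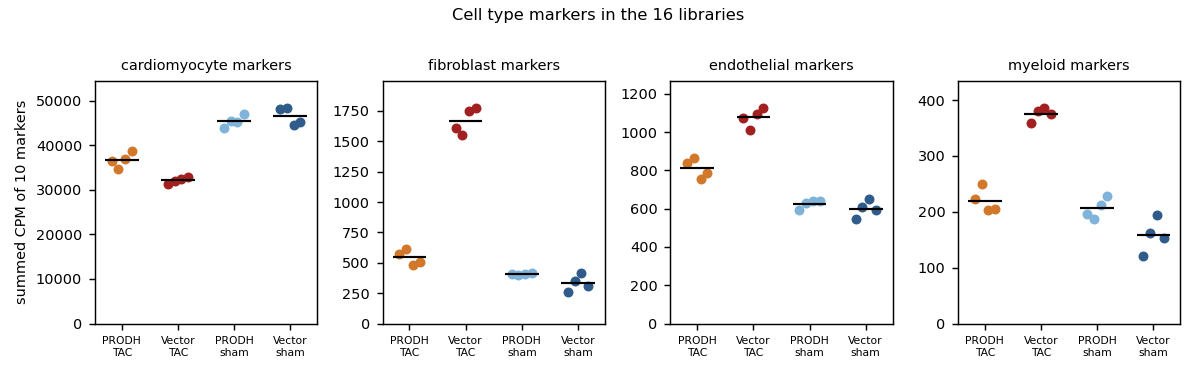
Summed level of 4 of the marker lists, cardiomyocyte, fibroblast, endothelial and myeloid (CPM, y axis), in every library, by group from PRODH TAC to Vector sham on the x axis, with a bar at the mean of the 4 libraries. The fibroblast markers sit between 1551 and 1777 CPM in Vector TAC and at or under 614.1 CPM in the other 12 libraries.

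After TAC in vector-treated hearts the adhesion genes moved mostly upward. Of the 38 tested members, 31 were called higher and 3 lower in Vector TAC than in Vector sham, where 56.5% of all genes tested were called, 30.3% higher and 26.2% lower. The median of the members was a log2 fold change of 0.83, against 0.02 over all genes. Itgbl1 and Itga11 had the largest rises, both 3.88, and Itga7, Itgb1bp2 and Lims1 were the 3 that fell. In 28 members all 4 Vector TAC libraries lay above all 4 Vector sham libraries, a separation that 26.1% of all genes showed. Without Vector TAC libraries 3 and 4 the counts were 29 higher and 3 lower of 39 tested, beside 3706 and 3017 of 14469 genes.

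With PRODH, the same family stood lower in the loaded heart. Of the 38 members, 21 were called lower and 2 higher in PRODH TAC than in Vector TAC, where 43.1% of all genes were called, 24.6% lower and 18.5% higher, and the median was -0.41 against -0.04 over all genes. All 21 were among the 31 that TAC had raised under vector. Both comparisons use the same Vector TAC libraries, with opposite sign, so this overlap is partly built in and is no separate support. The other 10 of the 31 did not pass the threshold between the viruses after TAC. Without Vector TAC libraries 3 and 4 the counts were 15 lower and 3 higher of 39 tested. The calls over all genes fell as well, from 3456 lower and 2603 higher of 14066 to 2507 and 1751 of 14469.

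TAC also raised members under PRODH. There, 21 members were called higher and 2 lower in PRODH TAC than in PRODH sham, beside 17.2% and 17.8% of all genes, with a median of 0.35 against 0.02. Of the 31 that rose under vector, 19 also rose under PRODH. In 27 of the 31 the TAC effect was smaller under PRODH, a count that is favoured by picking them for their rise under vector. The test of that difference, the virus by surgery interaction, called 17 members, all with a lower TAC effect under PRODH, written as a negative value below (lower in 15.8% of all genes, higher in 10.9%). By edgeR 0 members were called in the other direction and 0 had an unadjusted p under 0.05 there, and DESeq2 called 16 lower and 0 higher. Without Vector TAC libraries 3 and 4 the interaction called 11 of 39 lower, beside 1659 of 14469 genes (2224 of 14066 in the full fit). Across the 38 members the TAC effects under the 2 viruses, which share no library, had a Pearson r of 0.57 and a Spearman rho of 0.42, and 35 had the same sign; genes are not independent, and no test is given.

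**Figure D2:**
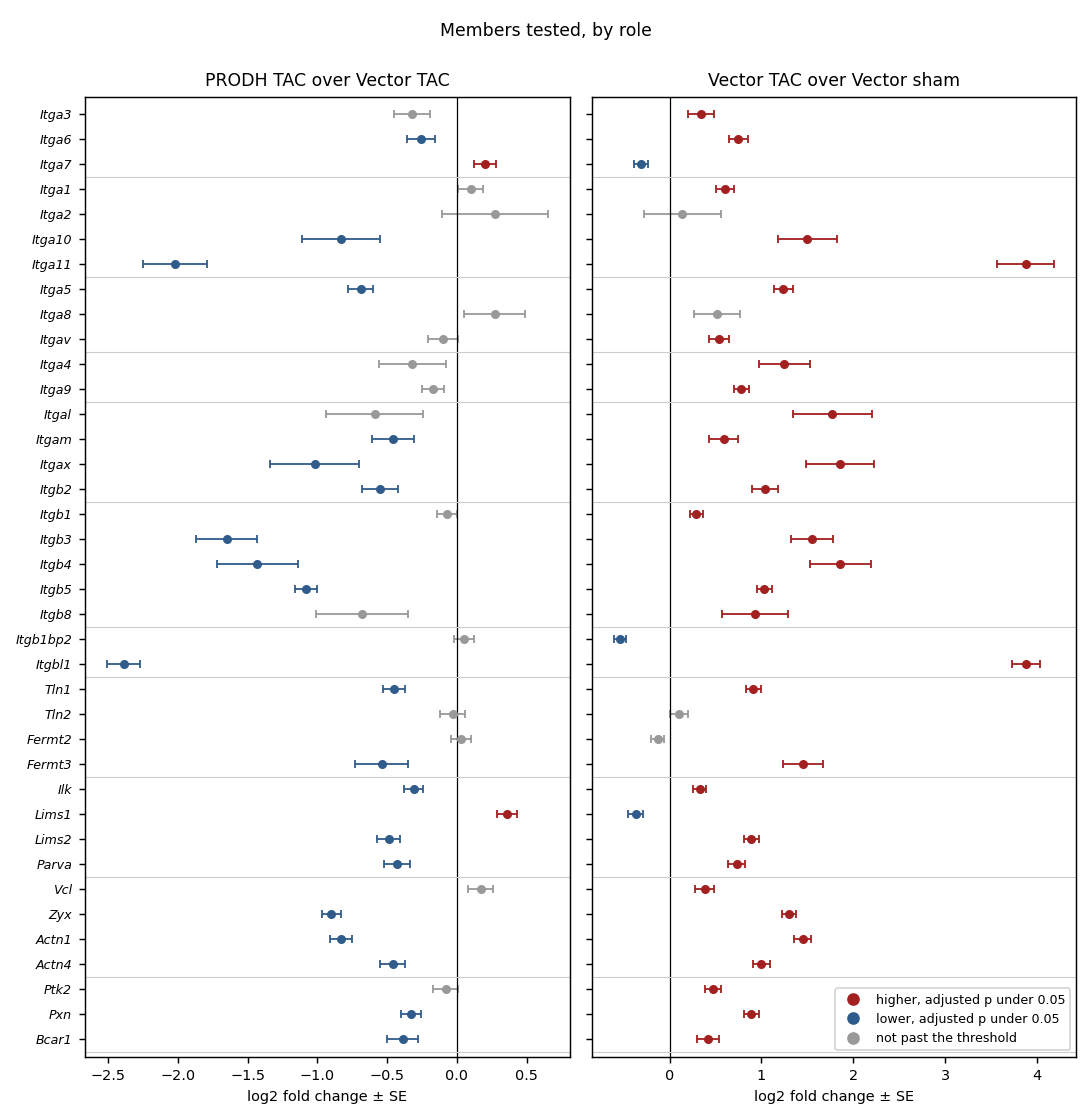
Log2 fold change of each of the 38 tested members (x axis) with its SE, ordered by role down the page, for PRODH against vector after TAC and for TAC against sham under vector. Most members sit right of 0 for TAC under vector and left of 0 for PRODH after TAC, with Itgbl1 at 3.88 and -2.39.

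The scale of these values depends on how libraries are set against each other. The mitochondrial genome took 34.5% to 36.6% of the counts after TAC and 37.9% to 40.9% after sham. Scaled by library size alone, the median of all genes moved to 0.37 for TAC under vector and 0.40 under PRODH, and genes called higher were then 86.2% and 96.2% of all calls. Of the 38 members, 34 and 30 were then called higher, beside 7474 and 7875 of all 14066 genes tested. A rise or fall after TAC is therefore relative to the middle of the transcriptome, and the members below whose direction flips are named. The lean of all genes to lower with PRODH after TAC also moved with the fit. Without any 1 sham library, none of which is in that comparison, the median of all genes was -0.00. Without PRODH sham 1, for example, 3054 genes were called higher and 3052 lower, with 2 members higher and 21 lower.

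The promoters of 5 members are shown because these genes carry the contrast: Itgbl1, Itgb5, Zyx and Actn1 rose after TAC under vector and were lower with PRODH after TAC, while Vcl rose under vector and did not pass the threshold between the viruses. Each is the RefSeq window of GRCm38.p6, 250 bases before to 50 after the gene's start, read 5′ to 3′ along the gene, with matches in capitals. Searched on both strands were the GC box GGGCGG, the AP-1 site TGANTCA, the MCAT core CATTCC and the CArG box, the binding letters of SP factors, FOS and JUN, TEAD factors and SRF. Itgbl1 lies on the plus strand at chr14:123659890-123660189, Itgb5 on the plus strand at chr16:33829415-33829714, Zyx on the plus strand at chr6:42349578-42349877, Actn1 on the minus strand at chr12:80260314-80260613 and Vcl on the plus strand at chr14:20929148-20929447.
Itgbl1: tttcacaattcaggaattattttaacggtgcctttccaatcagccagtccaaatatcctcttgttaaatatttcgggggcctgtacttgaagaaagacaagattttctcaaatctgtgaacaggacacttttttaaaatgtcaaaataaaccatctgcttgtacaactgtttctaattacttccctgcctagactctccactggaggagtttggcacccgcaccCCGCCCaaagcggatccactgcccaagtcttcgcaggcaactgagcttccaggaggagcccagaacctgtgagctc
Itgb5: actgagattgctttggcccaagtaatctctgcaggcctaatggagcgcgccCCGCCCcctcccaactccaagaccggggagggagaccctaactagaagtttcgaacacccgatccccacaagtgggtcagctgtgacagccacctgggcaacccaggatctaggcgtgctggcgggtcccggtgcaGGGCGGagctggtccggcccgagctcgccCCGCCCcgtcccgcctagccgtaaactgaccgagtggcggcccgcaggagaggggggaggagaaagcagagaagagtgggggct
Zyx: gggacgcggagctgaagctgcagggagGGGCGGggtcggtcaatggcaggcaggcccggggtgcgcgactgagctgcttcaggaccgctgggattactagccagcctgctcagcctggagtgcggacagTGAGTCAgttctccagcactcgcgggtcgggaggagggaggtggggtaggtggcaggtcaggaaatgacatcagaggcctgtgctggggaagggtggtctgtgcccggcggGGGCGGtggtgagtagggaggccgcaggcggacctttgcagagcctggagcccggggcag
Actn1: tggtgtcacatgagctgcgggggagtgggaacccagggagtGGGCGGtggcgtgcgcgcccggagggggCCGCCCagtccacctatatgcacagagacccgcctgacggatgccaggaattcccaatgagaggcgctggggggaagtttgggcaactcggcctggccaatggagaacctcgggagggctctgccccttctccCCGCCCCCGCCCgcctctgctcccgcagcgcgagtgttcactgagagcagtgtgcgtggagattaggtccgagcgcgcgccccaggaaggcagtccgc
Vcl: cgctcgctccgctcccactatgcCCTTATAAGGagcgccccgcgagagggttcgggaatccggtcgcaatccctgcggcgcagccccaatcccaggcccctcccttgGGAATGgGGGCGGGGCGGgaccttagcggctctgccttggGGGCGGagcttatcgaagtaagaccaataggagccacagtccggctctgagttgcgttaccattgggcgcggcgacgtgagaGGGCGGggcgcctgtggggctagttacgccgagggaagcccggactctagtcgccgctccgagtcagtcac
Itgbl1 held 1 GC box, Itgb5 held 3 and Actn1 held 4. Zyx held 2 GC boxes and 1 AP-1 site, which began 121 bases before the start. Vcl held 1 CArG box, 227 bases before the start, 1 MCAT core and 4 GC boxes. Of the 33 windows of the 28 members with one, 19 held a GC box, 5 an AP-1 site, 4 an MCAT core and 2 a CArG box (Fermt2 and Vcl). Over all 32851 windows the shares were 35.7%, 7.81%, 14.7% and 1.63%. A match is a run of letters and not a shown binding site.

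Among the laminin receptors, Itga7, the alpha chain typical of adult striated muscle, was lower after TAC under vector where Itga3 and Itga6 were higher. It had 70.99, 75.7, 72.2 and 84.2 CPM in PRODH TAC, against 62.8, 57.3, 72.8 and 70.6 CPM in Vector TAC. In the sham groups Itga7 had 85.2, 84.7, 82.4 and 82.6 CPM in PRODH sham, against 80.99, 83.8, 88.2 and 73.3 CPM in Vector sham. Every Vector TAC library lay below every Vector sham library, while PRODH TAC and Vector TAC overlapped. Itga7 was lower after TAC under vector (-0.31 ± 0.08, adjusted p = 0.00115), had a log2 fold change of -0.14 ± 0.08 under PRODH (adjusted p = 0.148), and was higher with PRODH after TAC (0.20 ± 0.08, adjusted p = 0.0324). The last call was lost without any one of PRODH TAC 2, PRODH TAC 4, Vector TAC 1 or Vector TAC 2 (adjusted p = 0.0553 to 0.123), and with library size as the only scaling its TAC values turned to 0.04 under vector and 0.23 under PRODH.

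Itga6, which pairs with beta 1 or beta 4 and is abundant in endothelium, rose after TAC under both viruses. It had 43, 52.5, 43.7 and 44.2 CPM in PRODH TAC, against 54.96, 42.9, 60.2 and 62.3 CPM in Vector TAC. Sham hearts had 25.7, 31.2, 28.8 and 28.4 CPM in PRODH sham, against 30.6, 28.2, 37.4 and 34.9 CPM in Vector sham. Both TAC groups lay wholly above their sham groups, and the PRODH TAC and Vector TAC libraries overlapped. The rise was 0.75 ± 0.10 under vector (adjusted p = 8.52e-07) and 0.68 ± 0.10 under PRODH (adjusted p = 1.45e-05). The difference between viruses after TAC was small (-0.26 ± 0.10, adjusted p = 0.0343), was lost in 14 of the 16 fits that left out 1 library (adjusted p = 0.0604 to 0.131; it held only without PRODH TAC 2 or Vector TAC 2), and was -0.10, adjusted p = 0.546 without Vector TAC libraries 3 and 4. Itga3, a laminin receptor of epithelia, was low, with 3.58, 4.63, 4.31 and 3.62 CPM in PRODH TAC, against 4.81, 4.58, 5.03 and 5.69 CPM in Vector TAC. After sham Itga3 stood at 4.14, 4.05, 3.27 and 3.42 CPM in PRODH sham, against 3.63, 4.77, 3.86 and 3.49 CPM in Vector sham. Its groups overlapped in all comparisons, and its call after TAC under vector (0.34 ± 0.14, adjusted p = 0.0350) was lost without Vector TAC 3 or 4 or Vector sham 1, 3 or 4 (adjusted p = 0.0569 to 0.14) and was 0.24, adjusted p = 0.240 without both Vector TAC libraries.

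Of the collagen receptors, Itga11, a collagen I receptor known from fibroblasts, made the larger change. It had 1.01, 1.07, 0.975 and 0.787 CPM in PRODH TAC, against 2.94, 3.899, 4.46 and 4.39 CPM in Vector TAC. Sham values of Itga11 were 0.3502, 0.0623, 0.344 and 0.525 CPM in PRODH sham, against 0.142, 0.254, 0.181 and 0.423 CPM in Vector sham. The 3 levels did not overlap: Vector TAC was highest, PRODH TAC lay between, and both sham groups were at 0.525 CPM or less. It was 14.7-fold higher after TAC under vector (3.88 ± 0.31, adjusted p = 6.90e-12), 2.97-fold higher under PRODH (adjusted p = 0.000757) and 4.05-fold lower with PRODH after TAC (adjusted p = 3.41e-08). The interaction was -2.31 ± 0.53, adjusted p = 0.00156. Itga10, a collagen receptor known from cartilage, was rare, with 0.563, 0.537, 0.406 and 0.6298 CPM in PRODH TAC, against 0.766, 0.936, 1.101 and 1.03 CPM in Vector TAC. In sham hearts Itga10 had 0.467, 0.561, 0.573 and 0.4598 CPM in PRODH sham, against 0.427, 0.254, 0.241 and 0.423 CPM in Vector sham. Vector TAC lay above all other libraries. Itga10 rose under vector (1.50 ± 0.32, adjusted p = 0.000217) and was lower with PRODH after TAC (-0.83 ± 0.28, adjusted p = 0.0168), a call lost without PRODH TAC 3 or Vector TAC 3 (adjusted p = 0.0632 and 0.0561) and without Vector TAC libraries 3 and 4 together (-0.66, adjusted p = 0.185; interaction -1.28, adjusted p = 0.0933).

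The commoner collagen receptor Itga1, which also binds collagen IV of the basement membrane, showed no such gap. It had 35.4, 39.5, 32.7 and 34.2 CPM in PRODH TAC, against 37.6, 30.1, 30.3 and 33.9 CPM in Vector TAC. The sham libraries of Itga1 had 21.2, 23.6, 25.4 and 21.9 CPM in PRODH sham, against 22.8, 17.3, 22.3 and 24.8 CPM in Vector sham. Each TAC group lay above its sham group, and the 2 TAC groups overlapped. The TAC rise was 0.60 ± 0.10 under vector (adjusted p = 4.46e-06) and 0.62 ± 0.10 under PRODH (adjusted p = 8.78e-06), and the interval of the difference between them ran from -0.26 to 0.30. Itga2, a platelet and epithelial collagen receptor, stayed at 0.604 CPM or less. It was called only after TAC under PRODH (1.32 ± 0.46, adjusted p = 0.0248), a call lost without PRODH TAC 2 or PRODH sham 2 or 3 (adjusted p = 0.0543 to 0.0874).

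The receptors of fibronectin and vitronectin split in the same way. Itga5, whose pair with beta 1 is the main fibronectin receptor, had 27.6, 28.5, 28.8 and 30.9 CPM in PRODH TAC, against 42.6, 38.05, 53.3 and 52.96 CPM in Vector TAC. Sham hearts had 21.8, 17.5, 20.5 and 18.2 CPM in PRODH sham, against 19.1, 21.6, 19.6 and 18.9 CPM in Vector sham. The Vector TAC libraries were all above PRODH TAC, and these were all above both sham groups. It rose 2.35-fold under vector (1.24 ± 0.10, adjusted p = 3.74e-12) and 1.48-fold under PRODH (0.57 ± 0.10, adjusted p = 3.21e-05). PRODH TAC was 1.61-fold lower than Vector TAC (-0.69 ± 0.09, adjusted p = 3.72e-07), and the interaction was -0.67 ± 0.13, adjusted p = 0.000423. Itgav, the shared alpha chain of the vitronectin receptors, had 16.5, 20.2, 18.1 and 16.4 CPM in PRODH TAC, against 18.6, 19.5, 19.5 and 18.8 CPM in Vector TAC. After sham Itgav stood at 17.98, 13.5, 13.6 and 11.6 CPM in PRODH sham, against 13.8, 10.2, 15.4 and 13.1 CPM in Vector sham. The TAC groups overlapped each other. Itgav rose under vector (0.54 ± 0.11, adjusted p = 0.000192) and under PRODH (0.33 ± 0.11, adjusted p = 0.0238), and the second call was lost without PRODH TAC 2 or 3 or PRODH sham 4 (adjusted p = 0.0506 to 0.0983), while without PRODH sham 1 the value was 0.50. Itga8, a nephronectin receptor, was called only after TAC under PRODH (0.79 ± 0.24, adjusted p = 0.0115), at 0.710 to 2.52 CPM over all libraries; under vector it passed without Vector sham 1 (adjusted p = 0.0286). Itga2b, the platelet fibrinogen receptor, failed the filter with 0 to 13 counts a library.

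Itga9, a receptor of tenascin and VCAM1 on smooth muscle and endothelium, rose under both viruses. It had 39.05, 38.8, 40.01 and 41.9 CPM in PRODH TAC, against 44.8, 39.3, 49.1 and 46.2 CPM in Vector TAC. Sham values of Itga9 were 27.02, 22.8, 23.9 and 25.9 CPM in PRODH sham, against 28.5, 23.1, 27.9 and 25.5 CPM in Vector sham. Both TAC groups lay wholly above their sham groups. The rise was 0.78 ± 0.08 under vector (adjusted p = 2.06e-09) and 0.68 ± 0.08 under PRODH (adjusted p = 1.69e-07). The difference between viruses after TAC did not pass the threshold (-0.17 ± 0.08, adjusted p = 0.0824) except without Vector TAC 2 (adjusted p = 0.0174). Its relative Itga4, a chain of leukocytes, had 1.17, 2.11, 1.34 and 1.61 CPM in PRODH TAC, against 2.04, 1.77, 1.73 and 2.22 CPM in Vector TAC. In sham hearts Itga4 had 1.69, 1.68, 1.26 and 1.18 CPM in PRODH sham, against 0.213, 1.01, 1.09 and 0.846 CPM in Vector sham. All PRODH sham libraries lay above all Vector sham libraries, and the TAC groups overlapped. Itga4 rose under vector (1.25 ± 0.28, adjusted p = 0.000348) and did not pass the threshold under PRODH (0.09 ± 0.26, adjusted p = 0.810); the interaction of -1.15 ± 0.38, adjusted p = 0.0243 was lost without PRODH TAC 1, PRODH sham 1 or 2 or Vector sham 1 (adjusted p = 0.0527 to 0.0692) and without Vector TAC libraries 3 and 4 (-1.13, adjusted p = 0.0612).

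The 4 tested leukocyte integrins all rose after TAC under vector, at low levels. Itgb2, the beta chain they share, had 4.62, 5.29, 4.18 and 4.13 CPM in PRODH TAC, against 5.49, 6.498, 7.65 and 7.16 CPM in Vector TAC. The sham libraries of Itgb2 had 3.74, 4.17, 3.78 and 3.94 CPM in PRODH sham, against 2.35, 3.197, 3.86 and 3.44 CPM in Vector sham. All Vector TAC libraries exceeded the other 3 groups. Itgb2 rose under vector (1.04 ± 0.14, adjusted p = 2.92e-07), was lower with PRODH after TAC (-0.55 ± 0.13, adjusted p = 0.000961) and had an interaction of -0.82 ± 0.20, adjusted p = 0.00296; without Vector TAC libraries 3 and 4 the difference after TAC was -0.39, adjusted p = 0.0562. Itgax, a chain of dendritic cells and macrophages, had 0.603, 0.496, 0.447 and 0.433 CPM in PRODH TAC, against 0.978, 0.7798, 1.05 and 1.25 CPM in Vector TAC. Sham hearts had 0, 0.1246, 0.229 and 0.131 CPM in PRODH sham, against 0.142, 0.254, 0.302 and 0.3703 CPM in Vector sham. The 2 TAC groups did not overlap each other or their sham groups. It rose under both viruses, by 1.86 ± 0.37 and 1.97 ± 0.48 (adjusted p = 9.93e-05 and 0.00204), and the difference after TAC (-1.02 ± 0.32, adjusted p = 0.00981) was -0.83, adjusted p = 0.137 without Vector TAC libraries 3 and 4.

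Itgal, the alpha chain of LFA-1 on lymphocytes and other leukocytes, had 0.764, 0.537, 0.609 and 0.5904 CPM in PRODH TAC, against 0.723, 0.728, 0.996 and 1.35 CPM in Vector TAC. After sham Itgal stood at 0.7004, 0.0623, 0.459 and 0.4598 CPM in PRODH sham, against 0.213, 0.406, 0.0604 and 0.3703 CPM in Vector sham. Vector TAC was above Vector sham throughout, and PRODH TAC overlapped Vector TAC. Itgal rose under vector (1.77 ± 0.43, adjusted p = 0.000919), and its interaction (-1.21 ± 0.62, adjusted p = 0.147) passed only without PRODH sham 2 (adjusted p = 0.0484). Itgam, the alpha chain of the complement receptor of myeloid cells, ranged from 2.92 to 7.10 CPM. Itgam rose under vector (0.59 ± 0.16, adjusted p = 0.00291) and was lower with PRODH after TAC (-0.46 ± 0.15, adjusted p = 0.0165). The second call was lost without PRODH TAC 3 or 4 or Vector TAC 3 or 4 (adjusted p = 0.0606 to 0.107), and without both Vector TAC libraries the values were 0.25, adjusted p = 0.250 for TAC and -0.12, adjusted p = 0.623 for PRODH. Itgb7, a gut-homing chain, failed the filter with 1 to 19 counts a library. The summed myeloid markers were also highest in Vector TAC, as given above. Under PRODH 2 of the 10 were called higher after TAC (17.2% of all genes), with a median of 0.25. Of the 4 tested leukocyte integrins 1 was called higher there, with values from 0.21 to 1.97 and a median of 0.39. The 1 was Itgax, whose counts in PRODH sham were only 0, 2, 4 and 2. The part of myeloid cells in these values was not tested.

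Among the beta chains, Itgb5, the vitronectin receptor chain that pairs with alpha v, stood apart in Vector TAC. It had 39.9, 37.1, 36.1 and 36.7 CPM in PRODH TAC, against 69.6, 71.3, 86.97 and 89.1 CPM in Vector TAC. Sham values of Itgb5 were 38.8, 35.2, 37.9 and 43.9 CPM in PRODH sham, against 38.2, 41.6, 38.3 and 36.4 CPM in Vector sham. All Vector TAC libraries were at 69.6 CPM or more, and the other 12 libraries were at 43.9 or less with PRODH TAC inside the sham range. TAC raised it 2.05-fold under vector (1.03 ± 0.08, adjusted p = 8.34e-12) and had a log2 fold change of -0.06 ± 0.08, adjusted p = 0.639 under PRODH. PRODH TAC was 2.12-fold lower than Vector TAC (-1.08 ± 0.08, adjusted p = 5.51e-12), with an interaction of -1.09 ± 0.12, adjusted p = 3.63e-08. With library size as the only scaling, the value under PRODH turned to 0.33 (adjusted p = 0.00134).

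Itgb3, the beta chain of platelets that also pairs with alpha v, had 0.925, 1.198, 0.569 and 0.866 CPM in PRODH TAC, against 2.81, 2.18, 2.94 and 3.25 CPM in Vector TAC. In sham hearts Itgb3 had 0.642, 0.436, 0.459 and 0.4598 CPM in PRODH sham, against 0.996, 1.07, 0.664 and 1.06 CPM in Vector sham. The Vector TAC values exceeded all other libraries, and PRODH sham lay below Vector sham without passing the threshold (-0.92 ± 0.30, adjusted p = 0.0827). It rose 2.93-fold under vector (1.55 ± 0.23, adjusted p = 1.49e-06) and was 3.13-fold lower with PRODH after TAC (-1.65 ± 0.22, adjusted p = 5.79e-07). Its rise under PRODH (0.82 ± 0.29, adjusted p = 0.0297) was lost without PRODH TAC 1 or 2 or PRODH sham 2, 3 or 4 (adjusted p = 0.0563 to 0.122), and the interaction did not pass (-0.73 ± 0.39, adjusted p = 0.168). Pf4, the only platelet gene of the red cell and platelet list to pass the filter, averaged 4.21 CPM in PRODH TAC and 6.48 in Vector TAC, with 4.58 in PRODH sham and 4.08 in Vector sham. Ppbp, Gp9 and Gp1bb of that list had 0 to 11 counts a library, so Pf4 alone is a weak gauge of platelet RNA. The part of platelet RNA was not tested.

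Itgb4, the partner of alpha 6 in hemidesmosomes, had 0.523, 0.578, 0.65 and 0.984 CPM in PRODH TAC, against 2.25, 1.35, 1.83 and 1.95 CPM in Vector TAC. The sham libraries of Itgb4 had 0.934, 1.06, 0.344 and 0.263 CPM in PRODH sham, against 0.498, 0.406, 0.604 and 0.529 CPM in Vector sham. Vector TAC lay above every other library. Itgb4 rose under vector (1.86 ± 0.33, adjusted p = 1.82e-05), was lower with PRODH after TAC (-1.43 ± 0.29, adjusted p = 0.000245) and had an interaction of -1.79 ± 0.49, adjusted p = 0.00692. Itgb1, the common beta chain and by far the most expressed, had 239, 229, 225 and 219.6 CPM in PRODH TAC, against 256, 249.8, 219.6 and 232 CPM in Vector TAC. Sham hearts had 201, 184, 183 and 168 CPM in PRODH sham, against 218, 180.2, 191 and 194 CPM in Vector sham. Each TAC group lay above its sham group, and the TAC groups overlapped. The rise was 0.29 ± 0.07 under vector (adjusted p = 0.00102) and 0.31 ± 0.07 under PRODH (adjusted p = 0.00115), and the interval of the interaction was -0.19 to 0.23. Itgb8, which with alpha v frees TGF-beta from its latent form, was called only under vector (0.93 ± 0.36, adjusted p = 0.0296), a call lost without Vector TAC 1 (value 0.61, adjusted p = 0.191) or Vector sham 1, 2 or 4.

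Itgbl1, a secreted protein with repeats like those of beta chains, had the largest difference between the viruses after TAC of the 38 members. It had 4.54, 5.12, 3.98 and 3.54 CPM in PRODH TAC, against 22.3, 26.9, 19.8 and 20.98 CPM in Vector TAC. After sham Itgbl1 stood at 1.87, 1.93, 2.64 and 1.91 CPM in PRODH sham, against 1.78, 1.73, 1.57 and 1.06 CPM in Vector sham. Vector TAC was at 19.8 CPM or more, PRODH TAC between 3.54 and 5.12, and sham libraries at 2.64 or less. The rise was 14.7-fold under vector (3.88 ± 0.15, adjusted p = 4.35e-19) and 2.05-fold under PRODH (1.03 ± 0.17, adjusted p = 1.80e-05). PRODH TAC was 5.23-fold lower than Vector TAC (-2.39 ± 0.12, adjusted p = 5.52e-16), and the interaction was -2.85 ± 0.25, adjusted p = 5.69e-10. Fibroblast markers had the same order of groups. Itgb1bp2, melusin, a muscle protein that binds the beta 1 tail, went the other way. It had 87.4, 80.1, 89.6 and 89.3 CPM in PRODH TAC, against 81.2, 83.4, 86.5 and 83.2 CPM in Vector TAC. Sham values of Itgb1bp2 were 103, 119.6, 127 and 125 CPM in PRODH sham, against 120.2, 126, 117 and 124 CPM in Vector sham. All 8 TAC libraries were below all 8 sham libraries. It fell under vector (-0.54 ± 0.07, adjusted p = 8.65e-08) and under PRODH (-0.46 ± 0.07, adjusted p = 6.69e-06), and the viruses did not differ past the threshold after TAC (0.05 ± 0.07, adjusted p = 0.574); with library size as the only scaling the value was -0.08 under PRODH and not called.

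**Figure D3:**
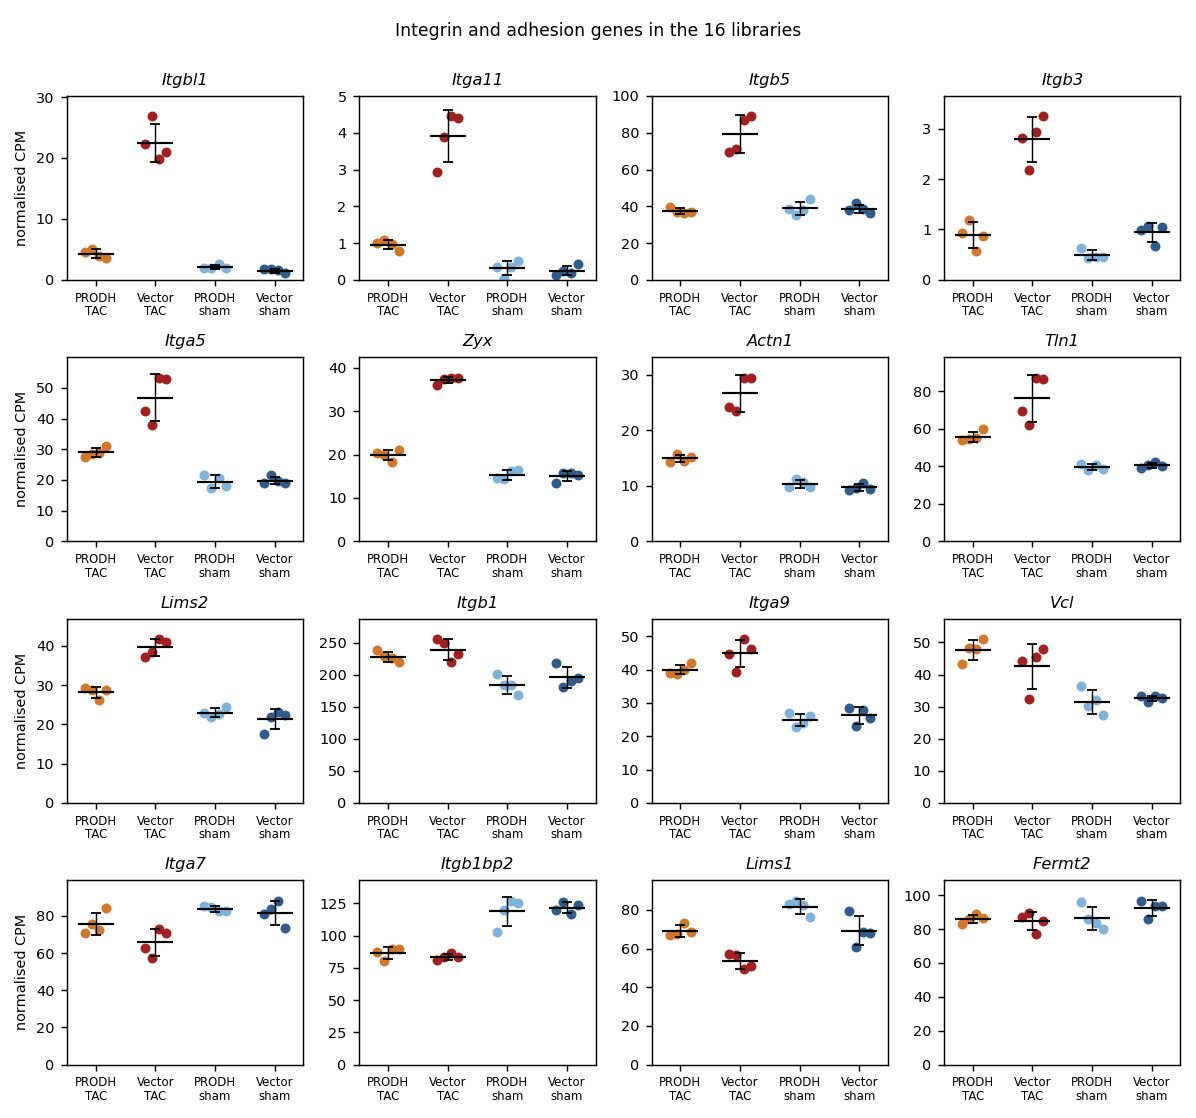
Level of 16 members (CPM, y axis from 0) in each library (points), by group from PRODH TAC to Vector sham on the x axis, with the mean and SD of the 4 libraries. Itgbl1, Itga11 and Itgb5 are highest in Vector TAC, Itgb1 and Itga9 are raised in both TAC groups, and Itgb1bp2 is lower in both.

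The proteins that switch integrins on divided by isoform. Tln1, the widely expressed talin, had 53.8, 54.3, 55.04 and 59.8 CPM in PRODH TAC, against 69.2, 62.02, 87.3 and 86.3 CPM in Vector TAC. In sham hearts Tln1 had 41.5, 38, 40.7 and 38.8 CPM in PRODH sham, against 39.2, 40.6, 42.1 and 40.1 CPM in Vector sham. Each Vector TAC library exceeded PRODH TAC, and PRODH TAC lay above both sham groups. Tln1 rose under vector (0.91 ± 0.08, adjusted p = 2.13e-10) and under PRODH (0.49 ± 0.09, adjusted p = 5.07e-05), and was lower with PRODH after TAC (-0.45 ± 0.08, adjusted p = 5.75e-05). The interaction of -0.42 ± 0.12, adjusted p = 0.00900 was -0.21, adjusted p = 0.154 without Vector TAC libraries 3 and 4. Tln2, the talin prominent in heart muscle, ranged from 23.9 to 35.2 CPM and was called in none of the 5 comparisons; after TAC it had log2 fold changes of 0.10 ± 0.10 under vector and -0.04 ± 0.09 under PRODH, and it passed under vector only without Vector TAC 2 (adjusted p = 0.0369). Scaled by library size alone Tln2 rose in both, by 0.45 and 0.33, the second a turned sign.

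Fermt2, the kindlin of heart muscle, was likewise called in none, at 77.1 to 96.8 CPM. Its TAC values were -0.13 ± 0.07 under vector and -0.00 ± 0.07 under PRODH. They turned to 0.23 and 0.37 when scaled by library size alone, and the first passed without Vector sham 2 (adjusted p = 0.0457) and by DESeq2 (-0.15, adjusted p = 0.0355). Fermt3, the kindlin of blood cells, had 2.49, 2.07, 2.03 and 1.81 CPM in PRODH TAC, against 2.85, 3.27, 3.04 and 3.09 CPM in Vector TAC. The sham libraries of Fermt3 had 2.39, 1.43, 2.41 and 1.84 CPM in PRODH sham, against 0.712, 0.863, 1.75 and 1.11 CPM in Vector sham. Vector TAC lay above the other 3 groups. Fermt3 rose under vector (1.45 ± 0.22, adjusted p = 1.61e-06) and did not pass the threshold under PRODH (0.05 ± 0.20, adjusted p = 0.878), with an interaction of -1.40 ± 0.30, adjusted p = 0.000815. Its lower level with PRODH after TAC (-0.54 ± 0.19, adjusted p = 0.0213) was lost without PRODH TAC 4 (adjusted p = 0.0874) and without Vector TAC libraries 3 and 4 (-0.54, adjusted p = 0.0852).

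In the ILK complex, which joins integrins to actin, the 2 PINCH proteins moved apart. Lims2, PINCH2, had 29.2, 28.7, 26.2 and 28.7 CPM in PRODH TAC, against 37.3, 38.6, 41.7 and 41.03 CPM in Vector TAC. Sham hearts had 22.8, 21.9, 22.7 and 24.5 CPM in PRODH sham, against 17.5, 22.02, 23.2 and 22.5 CPM in Vector sham. All Vector TAC libraries exceeded PRODH TAC and PRODH TAC lay above PRODH sham. Lims2 rose under vector (0.89 ± 0.08, adjusted p = 1.06e-10), rose less under PRODH (0.30 ± 0.08, adjusted p = 0.00468; interaction -0.59 ± 0.11, adjusted p = 0.000220) and was lower with PRODH after TAC (-0.49 ± 0.08, adjusted p = 6.81e-06). Lims1, PINCH1, had 66.8, 67.3, 73.4 and 68.6 CPM in PRODH TAC, against 57.3, 56.9, 49.3 and 51.2 CPM in Vector TAC. After sham Lims1 stood at 83.1, 84.7, 82.6 and 76.2 CPM in PRODH sham, against 79.3, 61.04, 68.8 and 68.1 CPM in Vector sham. Vector TAC was lowest throughout, and all PRODH TAC libraries were above it. Lims1 fell under vector (-0.37 ± 0.08, adjusted p = 0.000141) and under PRODH (-0.24 ± 0.07, adjusted p = 0.0116), and was higher with PRODH after TAC (0.36 ± 0.07, adjusted p = 0.000254). The fall under PRODH was lost without PRODH sham 1, 2 or 3 (adjusted p = 0.0502 to 0.0718), and with library size as the only scaling its TAC values were -0.01 under vector and a turned 0.13 under PRODH. Its sham difference (0.24 ± 0.08, adjusted p = 0.0622) passed without PRODH sham 4, Vector TAC 2 or Vector sham 1 (adjusted p = 0.0128 to 0.0454), and without Vector TAC libraries 3 and 4 (0.24, adjusted p = 0.0378).

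Parva, alpha-parvin, the actin-binding part of the complex, had 25.5, 25.6, 24.8 and 25.1 CPM in PRODH TAC, against 34.1, 27.1, 35.1 and 39.4 CPM in Vector TAC. Sham values of Parva were 21.6, 22.6, 18.9 and 20.1 CPM in PRODH sham, against 22.8, 20.4, 19.9 and 19.2 CPM in Vector sham. Each library of Vector TAC lay above PRODH TAC, and PRODH TAC lay above both sham groups. Parva rose under vector (0.73 ± 0.09, adjusted p = 5.52e-08) and under PRODH (0.28 ± 0.09, adjusted p = 0.0164), and was lower with PRODH after TAC (-0.43 ± 0.09, adjusted p = 0.000211). The interaction (-0.45 ± 0.13, adjusted p = 0.00962) was lost without PRODH sham 2 or Vector sham 4 (adjusted p = 0.0505 and 0.0508) and without Vector TAC libraries 3 and 4 (-0.30, adjusted p = 0.0925). Ilk, the pseudokinase at the centre of the complex, was higher under vector (0.33 ± 0.07, adjusted p = 0.000263) and lower with PRODH after TAC (-0.31 ± 0.07, adjusted p = 0.000930), with 38.6 to 41.9 CPM in PRODH TAC and 44.0 to 52.9 in Vector TAC. Its interaction (-0.28 ± 0.10, adjusted p = 0.0387) was lost without any 1 library except Vector TAC 2 (adjusted p = 0.0544 to 0.186) and by DESeq2 (adjusted p = 0.0511).

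All 4 actin linkers rose after TAC under both viruses, and 3 rose less under PRODH. Zyx, zyxin, which gathers at adhesions and stress fibres under tension, had 20.4, 19.9, 18.2 and 20.9 CPM in PRODH TAC, against 35.99, 37.3, 37.7 and 37.6 CPM in Vector TAC. In sham hearts Zyx had 14.5, 14.3, 16.2 and 16.4 CPM in PRODH sham, against 13.4, 15.7, 15.7 and 15.3 CPM in Vector sham. Vector TAC lay above PRODH TAC without overlap, and PRODH TAC lay above both sham groups. It rose 2.46-fold under vector (1.30 ± 0.08, adjusted p = 1.28e-14) and 1.3-fold under PRODH (0.37 ± 0.08, adjusted p = 0.000500), with an interaction of -0.93 ± 0.11, adjusted p = 2.38e-07 and a 1.87-fold lower level with PRODH after TAC (adjusted p = 3.49e-11). Actn1, a non-muscle alpha-actinin that crosslinks actin, had 14.3, 15.7, 14.4 and 15.3 CPM in PRODH TAC, against 24.2, 23.4, 29.5 and 29.4 CPM in Vector TAC. The sham libraries of Actn1 had 9.75, 11.2, 10.7 and 9.85 CPM in PRODH sham, against 9.32, 9.64, 10.6 and 9.36 CPM in Vector sham. The order of the groups was the same, without overlap between the TAC groups or with sham. Actn1 rose under vector (1.45 ± 0.09, adjusted p = 4.18e-14) and under PRODH (0.52 ± 0.09, adjusted p = 6.11e-05), with an interaction of -0.93 ± 0.13, adjusted p = 3.61e-06 and a difference after TAC of -0.83 ± 0.08, adjusted p = 3.02e-09.

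Actn4, the other non-muscle alpha-actinin, had 45.05, 48.5, 41.5 and 44.01 CPM in PRODH TAC, against 58.9, 48.1, 69.7 and 69.7 CPM in Vector TAC. Sham hearts had 31.8, 29.6, 28.6 and 30.02 CPM in PRODH sham, against 28.2, 28.5, 34.8 and 31.2 CPM in Vector sham. The TAC groups overlapped by library 2 of each, and both lay above sham. Actn4 rose under vector (1.00 ± 0.09, adjusted p = 3.26e-10) and under PRODH (0.58 ± 0.09, adjusted p = 2.36e-05), and was lower with PRODH after TAC (-0.46 ± 0.09, adjusted p = 0.000154). Its interaction (-0.43 ± 0.13, adjusted p = 0.0166) was lost without PRODH sham 1 or 4 or Vector sham 1, 2 or 4 (adjusted p = 0.0545 to 0.0767) and without Vector TAC libraries 3 and 4 (-0.23, adjusted p = 0.199). Vcl, vinculin, which reinforces adhesions and the intercalated disc, had 43.4, 48.3, 48.02 and 51.01 CPM in PRODH TAC, against 44.1, 32.4, 45.5 and 48.02 CPM in Vector TAC. After sham Vcl stood at 36.4, 30.1, 31.98 and 27.3 CPM in PRODH sham, against 33.2, 31.5, 33.3 and 32.6 CPM in Vector sham. Vector TAC 2 was low and overlapped sham, and the TAC groups overlapped each other. Its rise was 0.38 ± 0.10 under vector (adjusted p = 0.00126) and 0.60 ± 0.10 under PRODH (adjusted p = 1.74e-05), with a difference after TAC of 0.17 ± 0.09, adjusted p = 0.152. Without Vector TAC libraries 3 and 4 the vector rise was 0.23, adjusted p = 0.0705 and the difference after TAC was 0.31, adjusted p = 0.0235.

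Of the signalling scaffolds, Pxn, paxillin, the docking protein of FAK, had 22.4, 22.9, 22.7 and 22.8 CPM in PRODH TAC, against 28.2, 25.6, 30.98 and 29.8 CPM in Vector TAC. Sham values of Pxn were 16.6, 15.4, 17.02 and 16.8 CPM in PRODH sham, against 13.9, 15.3, 16.7 and 15.9 CPM in Vector sham. Each Vector TAC library exceeded PRODH TAC, and PRODH TAC lay above both sham groups. Pxn rose under vector (0.89 ± 0.08, adjusted p = 7.62e-11) and under PRODH (0.46 ± 0.08, adjusted p = 3.39e-05), with an interaction of -0.43 ± 0.11, adjusted p = 0.00498 and a difference after TAC of -0.33 ± 0.07, adjusted p = 0.000577. Ptk2, focal adhesion kinase (FAK), had 17.5, 18.7, 16.4 and 16.5 CPM in PRODH TAC, against 20.6, 15.96, 18.1 and 18.6 CPM in Vector TAC. In sham hearts Ptk2 had 14.1, 12.7, 12.9 and 11.1 CPM in PRODH sham, against 14.5, 12.2, 12.98 and 13.5 CPM in Vector sham. Both TAC groups lay above their sham groups and overlapped each other. The rise was 0.47 ± 0.09 under vector (adjusted p = 7.30e-05) and 0.45 ± 0.09 under PRODH (adjusted p = 0.000337), and the interval of the interaction was -0.29 to 0.24. Bcar1, the adaptor p130Cas, had 7.08, 9.96, 7.19 and 8.11 CPM in PRODH TAC, against 10.5, 9.41, 12.4 and 10.03 CPM in Vector TAC. The sham libraries of Bcar1 had 7.41, 7.35, 7.22 and 7.75 CPM in PRODH sham, against 7.47, 8.12, 9.12 and 6.93 CPM in Vector sham. The TAC groups overlapped. Bcar1 rose under vector (0.42 ± 0.12, adjusted p = 0.00279), had 0.12 ± 0.12 under PRODH (adjusted p = 0.456) and was lower with PRODH after TAC (-0.39 ± 0.11, adjusted p = 0.00550; without Vector TAC libraries 3 and 4, -0.30, adjusted p = 0.0809).

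**Figure D4:**
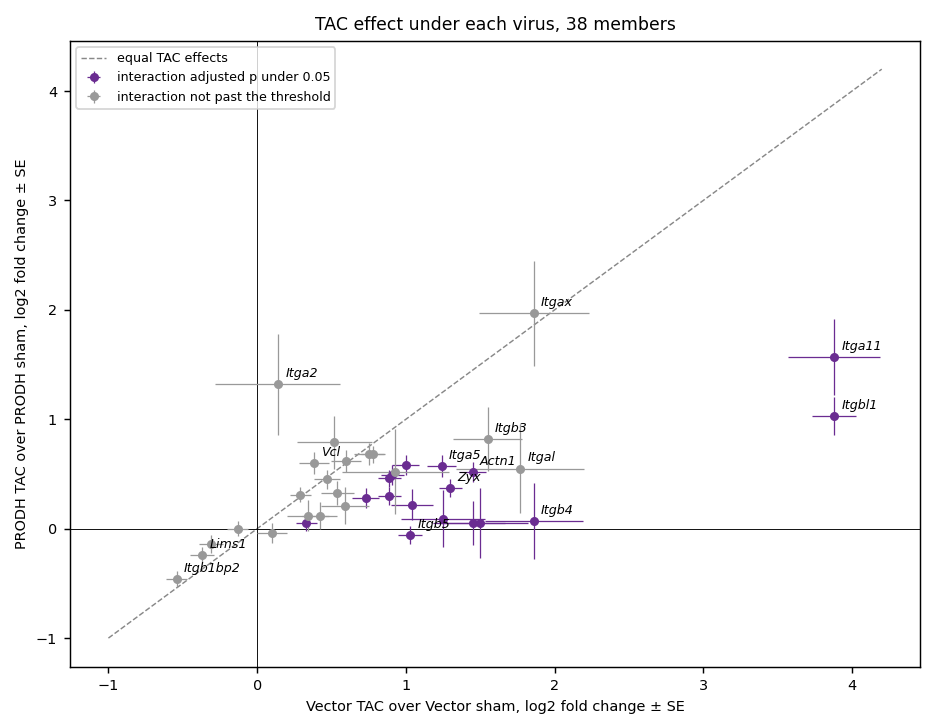
TAC effect on each tested member under PRODH (y axis, log2 fold change with SE) against its TAC effect under vector (x axis), with a line of equal effect and with the members called in the interaction coloured. Itgbl1 and Itga11 lie far below the line at 3.88 under vector, while Itga1, Itgb1 and Ptk2 lie on it.

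In sham hearts few of these genes were called between the PRODH and vector groups. Of the 38 members, 1 was called higher and 0 lower in PRODH sham than in Vector sham, beside 2.81% and 2.20% of all genes, with a median of 0.00. By edgeR's unadjusted p under 0.05 these were 4 and 1, and by DESeq2 2 were called higher and 0 lower. The 1 was Fermt3 (0.86 ± 0.24, adjusted p = 0.0255), with overlapping groups, lost without PRODH sham 1 or 3 or Vector sham 1, 2 or 4 (adjusted p = 0.0667 to 0.12) and when the 2 groups were fitted alone. In 34 members the 2 sham groups overlapped; Itga4, Itga10 and Itgbl1 lay wholly higher and Itgb3 wholly lower in PRODH sham, none past the threshold. Such separations showed in 5.25% and 5.17% of all genes. For Itgb5 the 95% interval of the sham difference ran from -0.16 to 0.18, and for Zyx from -0.14 to 0.19. Over the 38 members the sham values ran from -1.13 to 0.86, and for members with few counts the lack of a call does not show equal levels.

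Set per kilobase of the deposited gene length, so that genes can be compared, beta 1 led its chains in all 4 groups, and alpha 7 led the alpha chains in all but Vector TAC, where Itga6 averaged slightly more. That exception held only with the deposited length. With the longest GENCODE M21 transcript as length, Itga7 took 29.2% and Itga6 22.7% of the alpha sum in Vector TAC. With no length correction the shares there were 22.98% and 19.1%. Levels of the alpha chains summed to 52.8 ± 2.71 CPM per kb in PRODH TAC and 59.4 ± 7.07 in Vector TAC, with 42.96 ± 0.757 in PRODH sham and 43.7 ± 2.41 in Vector sham (SD, n = 4 each). Itga7 made up 34.2% of the alpha sum in PRODH TAC and 26.5% in Vector TAC, with 46.5% in PRODH sham and 44.5% in Vector sham. Its share was 25.8% to 27.2% over the Vector TAC libraries and 32.5% to 36.8% over the PRODH TAC libraries, without overlap. Itga5 made up 12.5% in PRODH TAC and 17.9% in Vector TAC, with 10.3% in PRODH sham and 10.4% in Vector sham, and Itga6 made up 25.6% in PRODH TAC and 27.2% in Vector TAC, with 19.6% in PRODH sham and 22.1% in Vector sham. The beta chains summed to 74.1 ± 2.67 CPM per kb in PRODH TAC and 92.1 ± 1.72 in Vector TAC, with 62.7 ± 3.05 in PRODH sham and 65.5 ± 3.72 in Vector sham. Itgb1 made up 80.8% of the beta sum in PRODH TAC and 68.1% in Vector TAC, with 76.9% in PRODH sham and 78.3% in Vector sham. Itgb5 made up 16.5% in PRODH TAC and 28.2% in Vector TAC, with 20.4% in PRODH sham and 19.4% in Vector sham. These shares describe RNA and have no test.

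**Figure D5:**
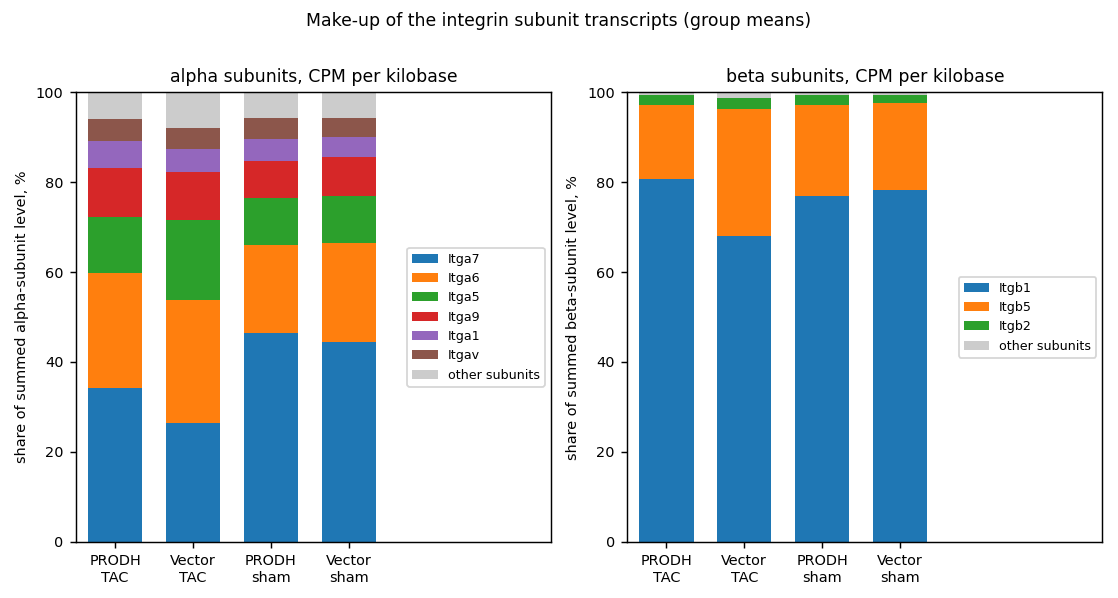
Share of the summed alpha chain and beta chain levels (percent of CPM per kb, y axis) taken by the leading chains, by group from PRODH TAC to Vector sham. Each stack is the mean of 4 libraries. Itga7 takes 26.5% and Itgb5 takes 28.2% in Vector TAC.

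Other genes of the adhesion system were counted in 3 lists. Of 36 other adhesion adaptors 35 were tested: 26 rose after TAC under vector and 9 were not called (30.3% of all genes were called higher), and 20 were lower and 1 higher with PRODH after TAC (24.6% and 18.5% of all genes). Under PRODH 19 rose and 2 fell after TAC (17.2% and 17.8% of all genes), and the interaction called 12 lower (15.8%). After sham 2 were lower with PRODH (2.20% of all genes), Nedd9 (-0.40) and Sorbs2 (-0.26). Sorbs3, vinexin, rose by 1.46 ± 0.10 under vector (adjusted p = 2.59e-13) and was lower with PRODH after TAC (-0.98 ± 0.09, adjusted p = 7.25e-10). Nedd9, a relative of p130Cas, rose by 1.12 ± 0.10 (adjusted p = 1.93e-10) and was lower with PRODH (-0.87 ± 0.10, adjusted p = 2.56e-08). Rsu1, a binding partner of PINCH1, rose by 1.14 ± 0.09 (adjusted p = 3.19e-12) and was lower with PRODH (-0.55 ± 0.08, adjusted p = 2.49e-06).

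Of 24 integrin ligands 22 were tested, of which 20 rose after TAC under vector and 2 were not called, beside 30.3% of all genes called higher, while 19 were lower with PRODH after TAC and 3 were not called, beside 24.6% of all genes called lower. Col1a1 and Col1a2 are also among the fibroblast markers. Under PRODH 15 rose after TAC, beside 17.2% of all genes, and the interaction called 13 lower, beside 15.8%. After sham 5 of the 22 were already lower with PRODH and 0 higher, beside 2.20% and 2.81% of all genes. These were Thbs1 (-1.03), Tnc (-1.17), Icam1 (-0.61), Col4a1 and Col4a2 (both -0.51), and 4 or 5 were called without any 1 library. Postn, periostin, a ligand of alpha v chains, had 49.5, 58.3, 42.5 and 40.7 CPM in PRODH TAC, against 274, 276, 200.5 and 221 CPM in Vector TAC. Sham hearts had 10.6, 11.5, 11.9 and 10.6 CPM in PRODH sham, against 10.96, 11.97, 12.1 and 11.6 CPM in Vector sham. The 3 levels did not overlap, with Vector TAC highest and PRODH TAC between it and sham. It was 20.8-fold higher after TAC under vector (4.38 ± 0.12, adjusted p = 5.15e-20) and 5.09-fold lower with PRODH after TAC (-2.35 ± 0.10, adjusted p = 2.06e-15). Col3a1, a fibrillar collagen, rose by 3.21 ± 0.10 (adjusted p = 1.55e-20) and was lower with PRODH (-1.67 ± 0.09, adjusted p = 1.63e-14), and Thbs1, thrombospondin-1, was lower with PRODH after TAC (-2.73 ± 0.12, adjusted p = 9.75e-17) and already after sham (-1.03 ± 0.18, adjusted p = 0.000248).

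Of the 16 integrin-linked surface partners 12 rose and 1 fell after TAC under vector, beside 30.3% and 26.2% of all genes. With PRODH after TAC 12 were lower, beside 24.6% of all genes, and 4 were not called. Under PRODH 4 rose and 3 fell after TAC, shares near the 17.2% and 17.8% of all genes. The interaction called 9 lower, beside 15.8% of all genes, and after sham 1 was higher with PRODH, beside 2.81% of all genes. Cd9, a tetraspanin that binds integrins sideways in the membrane, had 15.1, 16.7, 15.5 and 16.4 CPM in PRODH TAC, against 29.2, 36.3, 33.3 and 28.8 CPM in Vector TAC. After sham Cd9 stood at 11.3, 9.84, 9.86 and 12.2 CPM in PRODH sham, against 9.82, 11.3, 11.2 and 11.5 CPM in Vector sham. Vector TAC lay above PRODH TAC and both lay above sham. It rose 2.9-fold under vector (1.54 ± 0.09, adjusted p = 1.21e-14) and was lower with PRODH after TAC (-1.0 ± 0.09, adjusted p = 8.49e-11). Sdc2, a syndecan, rose by 1.02 ± 0.08 under vector (adjusted p = 4.16e-12), did not pass the threshold under PRODH (0.09 ± 0.08, adjusted p = 0.431) and was lower with PRODH after TAC (-0.79 ± 0.08, adjusted p = 8.96e-10).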

How the data were processed

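RNA of 16 cardiomyocyte libraries was sequenced with a SMARTER mRNA-Seq kit after TRIzol extraction and DNase I, per the labels' protocols. The authors deposited one table that holds an estimated count, an expected count that need not be whole, for each gene in each library, beside a gene length. How the authors made these estimated counts (aligner, counter, annotation, build) was not given in the sources used here. Gene coordinates come only from the RefSeq promoter windows. All 16 columns were matched to samples by name. The estimated counts were rounded to whole numbers here.

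The filterByExpr step of edgeR, with a minimum count of 10 and a minimum total of 15, kept 14066 genes, and TMM scaled the libraries. A robust quasi-likelihood fit over the 4 groups, without a block, used edgeR 4.0.16 and limma 3.58.1 in R 4.3.3, with Benjamini-Hochberg adjustment over all 14066 genes within each of 5 comparisons and a threshold of 0.05. SD belongs to the 4 libraries of a group and the intervals are 95% intervals. Per-kilobase levels divide CPM by the deposited length. DESeq2 1.42.0, 2 other scalings, removal of mitochondrial genes, 2 other filters, the 2 groups alone, a replicate block and leaving out each library were alternatives. No 2 libraries of a group held the same counts (chi-square per gene 2.87 to 30.7).

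All 40 members are named. Values in all libraries are given for called members among the 3 largest changes of their role, or its most expressed member, and also for Vcl, which was added after its values were seen. Of other lists, up to 4 genes of smallest p are named. The members, lists and tests were chosen with earlier results of these data known.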

Additional observations from a re-analysis of the deposited data

Results flagged for a closer look

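The TAC effect differed between the viruses by the interaction test in 17 members, all with the lower effect under PRODH (log2, TAC effect under PRODH minus that under vector). In order of size these were Itgbl1 at -2.85, Itga11 at -2.31, Itgb4 at -1.79, Itga10 at -1.45, Fermt3 at -1.40, Itga4 at -1.15 and Itgb5 at -1.09. Actn1 and Zyx both stood at -0.93, Itgb2 at -0.82, Itga5 at -0.67 and Lims2 at -0.59. Parva stood at -0.45, Actn4 and Pxn at -0.43, Tln1 at -0.42 and Ilk at -0.28. Without Vector TAC libraries 3 and 4 the test called 11 of 39 lower, beside 1659 of 14469 genes.

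In 8 of 160 groups of 4 libraries (40 members in 4 groups) 1 library lay apart, by its gap to the next set against the range of the 4. Chance gives about 5% of groups, so this count is what chance gives. The rule takes no account of counting noise. Itga6 reached 52.5 CPM in PRODH TAC 2. Itga2 reached 0.604 CPM in Vector sham 3. Itga2b was lowest at 0.165 CPM in PRODH TAC 2 and highest at 0.705 CPM in Vector TAC 4 and 0.234 CPM in PRODH sham 1. Itga2b failed the filter, and its counts were only 5, 4, 5 and 5 in PRODH TAC and 4, 2, 2 and 2 in PRODH sham. Itgb3 reached 0.642 CPM in PRODH sham 1 (counts of 11, 7, 8 and 7 in PRODH sham), and Itgbl1 reached 2.64 CPM in PRODH sham 3. Zyx was low in Vector sham 1, at 13.4 CPM.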

How the results depend on the processing

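Scaled by library size alone, 7 TAC values turned to a rise: Fermt2 to 0.23 under vector and 0.37 under PRODH, Itga7 to 0.04 and 0.23, and, under PRODH, Itgb5 to 0.33, Lims1 to 0.13 and Tln2 to 0.33. The members called lower after TAC were then 1 under vector and 0 under PRODH, beside 1198 and 311 of all 14066 genes. After sham, PRODH called 2 higher by DESeq2, 2 without Vector TAC libraries 3 and 4, and 0 with the 2 groups alone; the interaction called 11 lower without those libraries. The cause was not tested. Leaving out 1 library at a time, members called lower numbered 3 to 4 for TAC under vector, 18 to 23 for PRODH after TAC, 1 to 2 for TAC under PRODH, 0 to 0 for PRODH after sham and 14 to 17 for the interaction. Those called higher numbered 30 to 32, 1 to 2, 18 to 21, 0 to 2 and 0 to 0 in the same order. Of 98 calls 16 were lost without at least 1 library, and 7 values gained one. A value on the same side of the threshold whose sign flipped without passing in either setting was not counted as turned. By DESeq2's Wald test 6 calls were lost (Itga2 and Itgb3 for TAC under PRODH, Itga3 and Itgb8 for TAC under vector, Itga6 for PRODH after TAC and Ilk for the interaction, adjusted p = 0.0502 to 0.0783) and 2 were gained, Fermt2 for TAC under vector and Lims1 after sham (0.24, adjusted p = 0.0274). The interaction was not possible with the 2 groups alone.

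Itga7's share of the alpha sum was 37.4% in PRODH TAC and 29.2% in Vector TAC, with 49.9% in PRODH sham and 48.1% in Vector sham, using the longest GENCODE M21 transcript as length, and 29.3% in PRODH TAC and 22.98% in Vector TAC, with 40.8% in PRODH sham and 39.5% in Vector sham with no length. Itgb1's share of the beta sum was 81.7% in PRODH TAC and 69.4% in Vector TAC with that length, and with no length it was 83.7% in PRODH TAC and 72.1% in Vector TAC, with 80.4% in PRODH sham and 81.6% in Vector sham. PRODH sham stayed highest and Vector TAC lowest for Itga7 under all 3 lengths.

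Replicate numbers did not pair the libraries: same-numbered libraries had correlated deviations of -0.13 to 0.17 (median 0.01), over 0.1 in 3 of 24 pairs, and 5 of 16 libraries correlated best with their own number. With the replicate block 190 of 190 member results kept their direction and side of the threshold, for example Itgb5 at -1.08 for PRODH after TAC. Depth limits the members under about 1 CPM, where the standard error reached 0.63 (the interaction of Itga2).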
